A study of Mus musculus with 6 samples.

Results

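Amino acid transporters were examined in RNA of splenic cells labelled as memory CD8+ T cells, sorted from a mouse model of ovalbumin-induced asthma. The set holds 10 genes picked by symbol from the 55951 genes of the deposited table, namely Slc3a2, Slc7a5, Slc7a7, Slc7a8, Slc7a11, Slc1a5, Slc38a1, Slc38a2, Slc43a2 and Slc15a3. Each symbol had 1 row. The samples were 3 S100A4-positive libraries from cells gated as CD3+CD8+CD4-CD44+CD62L-EGFP+ and 3 S100A4-negative libraries from cells gated as CD3+CD8+CD4-CD44+CD62L-EGFP-. All came from C57BL/6 animals of genotype S100A4-EGFP, whose green fluorescence reports expression of the calcium-binding protein S100A4, and the labels list the treatment as untreated within the ovalbumin model. The reporter separates cells by the activity of 1 gene and is not by itself a mark of the T cell lineage. No label says whether the 3 libraries of a group came from separate animals, nor gives an age, and p-values therefore cover only library-to-library spread, which may be technical.

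Cells take up most amino acids through membrane carriers of the solute carrier families. One group works as a pair: the heavy chain Slc3a2, also called CD98 or 4F2hc, carries a light chain of the Slc7 family to the plasma membrane, and the light chain decides which amino acids are exchanged. T cells raise Slc7a5 and Slc1a5 when antigen activates them, to import leucine and glutamine for growth. Macrophages are known for the cystine carrier Slc7a11, which feeds glutathione synthesis, and for the arginine and lysine carrier Slc7a7.

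The labelled cell type was set against markers of T cells and of other cells. Summed over 15 T cell markers headed by Cd3d, Cd3e and Cd3g, the level was 420 to 592 FPKM in S100A4-positive libraries and 2645 to 3159 FPKM in S100A4-negative libraries, and all 15 were lower. Higher and lower are calls of the limma test described below, in S100A4-positive against S100A4-negative libraries. By that test 19.0% of all tested genes were higher and 43.4% lower. FPKM, as deposited by the authors, is a read count scaled for transcript length and library depth. Summed over 20 monocyte and macrophage markers headed by Csf1r, Adgre1 and Cd68, it was 10017 to 11026 FPKM in S100A4-positive libraries and 785 to 1092 FPKM in S100A4-negative libraries, and all 20 were higher. None of these markers was at 0 in any library. Of 10 dendritic cell markers 8 were higher, with sums of 512 to 1006 FPKM in S100A4-positive and 310 to 394 FPKM in S100A4-negative libraries. The 11 B cell markers summed to 1605 to 1622 FPKM in S100A4-positive and 7209 to 12657 FPKM in S100A4-negative libraries, with 8 lower. The 13 neutrophil markers summed to 455 to 1909 FPKM in S100A4-positive and 3578 to 5390 FPKM in S100A4-negative libraries, with 12 lower. Of 8 plasma cell markers 7 were lower, with sums of 360 to 653 and 1332 to 2793 FPKM in S100A4-positive and S100A4-negative libraries, and all 4 tested natural killer cell markers were lower. Both groups thus held marker RNA of cell types other than the T cells of their label. Monocyte and macrophage sums exceeded the T cell sum in each S100A4-positive library, and B cell and neutrophil sums exceeded it in each S100A4-negative library. The lists differ in length and in genes, so these sums do not measure shares of cells. The part of these cell types in the differences below was not tested, and in bulk RNA fewer cells of a type and less RNA per cell cannot be told apart. Whole reads worked back from FPKM came to 14925260 to 18660188 a library.

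Levels were compared with limma on log2(FPKM + 1) across all 13241 genes with a mean of at least 1 FPKM, and genes with a Benjamini-Hochberg adjusted p under 0.05 were called. All 10 transporters passed that minimum. In S100A4-positive libraries 6 were called higher, 2 were called lower and 2 were not called. Over all tested genes 62.3% were called, 19.0% higher and 43.4% lower. Over the 10 transporters the median log2 fold change was 1.01, and over all tested genes -0.36. In 9 of the 10 the groups did not overlap, 6 with the S100A4-positive libraries above and 3 with them below, where 70.0% of all tested genes did not overlap, 20.9% above and 49.1% below. In the table deposited by the authors, the authors' deposited table below, 6 of the 10 were called higher and 1 lower. Of the 28627 genes with a p-value there, 18.9% were called, 11.6% higher and 7.35% lower. That base includes genes under the minimum of 1 FPKM, which all 10 transporters passed, so its shares are not like those of the 13241 genes. Every fold change below sets S100A4-positive over S100A4-negative libraries, in units of log2(FPKM + 1), and SE is its standard error.

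**Figure D1:**
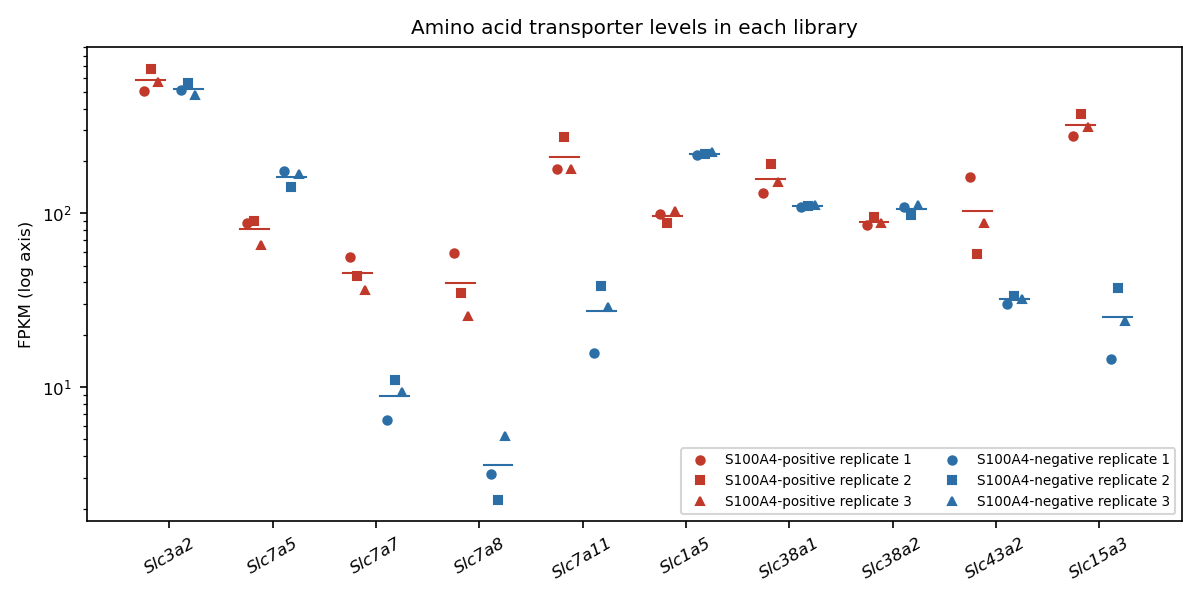
FPKM of each transporter on a log axis, with S100A4-positive libraries in red left of S100A4-negative libraries in blue; each symbol is 1 replicate and each line a group mean. Slc15a3, Slc7a11, Slc7a8 and Slc7a7 stand well apart between the groups, Slc7a5 and Slc1a5 lie lower in S100A4-positive libraries, and the 2 groups of Slc3a2 overlap.

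Slc3a2 (ENSMUSG00000010095, GRCm38 chromosome 19, 8706882 to 8723369, - strand), the shared heavy chain, was the most abundant of the 10 in both groups. It stood at 507, 679 and 570.5 FPKM in S100A4-positive libraries, against 511, 563 and 480.0 FPKM in S100A4-negative libraries. The groups overlapped, since S100A4-positive replicate 1 lay below 2 of the S100A4-negative libraries. The log2 fold change was 0.17 (SE 0.16; limma adjusted p = 0.37), so no difference passed the test; after median-of-ratios rescaling it was 0.55 (SE 0.18; limma adjusted p = 0.0412). By its group mean it ranked 163rd of the 13241 tested genes in S100A4-positive libraries and 191st in S100A4-negative libraries.

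Slc7a5 (chromosome 8, 121881150 to 121907694) is the LAT1 light chain that exchanges leucine and other large neutral amino acids. It went the other way from Slc7a7, Slc7a8 and Slc7a11. It stood at 87.6, 90.0 and 65.8 FPKM in S100A4-positive libraries, against 175, 142 and 169 FPKM in S100A4-negative libraries. Every S100A4-positive library was below every S100A4-negative one. Slc7a5 fell by 1.00 on the log2 scale (SE 0.16; limma adjusted p = 0.00150), and the group means were 81.1 ± 13.3 and 162 ± 17.6 FPKM in S100A4-positive and S100A4-negative libraries (SD, n = 3 each). In the authors' deposited table its log2 fold change was -0.61, with an adjusted p of 0.0960 and no call.

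Slc7a8 (chromosome 14, 54722209 to 54781946), the LAT2 light chain for neutral amino acids, stood at 58.8, 34.7 and 25.6 FPKM in S100A4-positive libraries, against 3.17, 2.25 and 5.24 FPKM in S100A4-negative libraries. The groups were far apart, although the libraries of each group differed among themselves by more than for most of the set. The lowest S100A4-positive library was 4.89 times the highest S100A4-negative one, and the highest library was 2.30 times the lowest within the S100A4-positive group and 2.32 times within the S100A4-negative group. Slc7a8 rose by 3.13 (SE 0.34; limma adjusted p = 3.03e-04).

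Slc7a7 (chromosome 14, 54369442 to 54417780), the y+LAT1 light chain that exports arginine and lysine in exchange for neutral amino acids, stood at 55.9, 43.4 and 36.4 FPKM in S100A4-positive libraries, against 6.45, 11.0 and 9.40 FPKM in S100A4-negative libraries. It rose by 2.22 (SE 0.22; limma adjusted p = 2.18e-04), with no overlap between the groups. Of its exon bases 7.0% are shared with Oxa1l on the opposite strand. Oxa1l stood at 38.5 to 47.3 FPKM in S100A4-positive libraries and 54.2 to 57.1 FPKM in S100A4-negative libraries, the opposite direction to Slc7a7.

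Slc7a11 (chromosome 3, 49892526 to 50443614), the xCT light chain that imports cystine in exchange for glutamate, was the most abundant light chain in S100A4-positive libraries. It stood at 179.5, 275 and 180.0 FPKM there, against 15.7, 38.3 and 28.7 FPKM in S100A4-negative libraries. The groups did not overlap, and the lowest S100A4-positive library was 4.69 times the highest S100A4-negative one. Slc7a11 rose by 2.95 (SE 0.32; limma adjusted p = 3.02e-04), with group means of 212 ± 55.0 and 27.6 ± 11.3 FPKM in S100A4-positive and S100A4-negative libraries (SD, n = 3 each).

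Slc7a6 and Slc7a10 are the remaining light chains known to pair with Slc3a2 and are not among the 10. Slc7a6, the y+LAT2 arginine and glutamine exchanger, was at 22.2 ± 1.43 FPKM in S100A4-positive and 36.7 ± 4.12 FPKM in S100A4-negative libraries (SD, n = 3 each). It fell by 0.70 (SE 0.13; limma adjusted p = 0.00271), and by 0.33 after median-of-ratios rescaling. In the authors' deposited table its log2 fold change was -0.34, with an adjusted p of 0.560 and no call. Slc7a10, the Asc-1 carrier of small neutral amino acids, was near the detection limit, at 0.385 to 1.10 FPKM in S100A4-positive libraries and 0.564 to 2.62 FPKM in S100A4-negative libraries, and was not called (log2 fold change -0.60, limma adjusted p = 0.151).

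Promoters of the 3 light chains that rose are shown because these genes differ in the same direction and each has a start in RefSeq's GRCm38.p6 table. Of the 10 transporters 6 have an entry there, and the most upstream start was used. Each line gives the 250 bases before the start, 5′ to 3′ on the gene's strand, with capitals for a match to TGATGNAA, the core of the C/EBP-ATF response element through which the factor ATF4 acts when amino acids are scarce.
Slc7a11 chr3:50443614-50443863, - strand: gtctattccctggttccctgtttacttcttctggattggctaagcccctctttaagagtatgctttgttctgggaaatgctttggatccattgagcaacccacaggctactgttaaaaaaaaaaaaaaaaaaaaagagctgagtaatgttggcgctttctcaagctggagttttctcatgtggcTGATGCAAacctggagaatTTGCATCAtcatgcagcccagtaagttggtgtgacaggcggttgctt
Slc7a7 chr14:54417945-54418194, - strand: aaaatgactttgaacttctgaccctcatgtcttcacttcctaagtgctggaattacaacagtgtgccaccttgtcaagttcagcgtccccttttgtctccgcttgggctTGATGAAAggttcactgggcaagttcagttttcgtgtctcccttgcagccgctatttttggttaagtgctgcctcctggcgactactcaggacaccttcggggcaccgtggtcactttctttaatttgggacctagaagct
Slc7a8 chr14:54781887-54782136, - strand: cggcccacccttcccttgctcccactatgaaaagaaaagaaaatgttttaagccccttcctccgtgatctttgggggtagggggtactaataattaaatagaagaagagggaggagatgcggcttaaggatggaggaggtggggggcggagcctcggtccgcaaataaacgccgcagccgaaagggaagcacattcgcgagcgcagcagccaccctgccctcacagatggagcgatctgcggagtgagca

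Slc7a11 holds the TGATGNAA core once on each strand, from 66 to 59 and from 47 to 40 bases before the start, with the second match on the opposite strand. Slc7a7 holds it once, starting 141 bases before the start, and Slc7a8 holds none in this window. Of the 6 transporters with an entry only these 2, Slc7a11 and Slc7a7, hold the core. Slc43a2, which also rose, has an entry and holds none. Both strands were searched, and 3.45% of 32851 promoter windows of the same length hold this core at least once. These windows leave out 1 chromosome, on which none of the transporters lies. The core TGACNNNGC of the antioxidant response element, to which NRF2 binds, was found in 1 of the 6 transporters, Slc38a2, and in 10.2% of these windows. Neither the E-box CACGTG, present in 6.02% of windows, nor the PU.1 site GAGGAAGT, present in 2.44%, was found in any of the 6, and no match overlapped one of another motif. A match is a match of letters and shows no binding.

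The balance of light chains differed more than their sum. FPKM is per length, so the shares of the 6 light chains can be set side by side within a library, and such shares do not depend on how libraries are scaled to each other. Slc7a11 made up 44.3%, 59.3% and 54.3% of the summed light-chain FPKM in S100A4-positive libraries, against 6.51%, 16.8% and 11.3% in S100A4-negative libraries. Slc7a5 made up 21.6%, 19.4% and 19.9% in S100A4-positive libraries, against 72.9%, 62.6% and 66.6% in S100A4-negative libraries. Slc7a11 was thus the leading light chain in each S100A4-positive library and Slc7a5 in each S100A4-negative library.

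The share of Slc7a7 averaged 11.4% ± 2.25 in S100A4-positive and 3.74% ± 1.08 in S100A4-negative libraries, and that of Slc7a8 9.90% ± 3.99 and 1.46% ± 0.55 (SD, n = 3 each). Slc7a6 averaged 5.67% ± 1.19 in S100A4-positive and 15.2% ± 1.15 in S100A4-negative libraries. The 6 light chains summed to 406, 464 and 331 FPKM in S100A4-positive libraries, against 241, 227 and 254 FPKM in S100A4-negative libraries. Set against the heavy chain, the sum was 0.801, 0.684 and 0.581 times Slc3a2 in S100A4-positive libraries, against 0.471, 0.404 and 0.528 times in S100A4-negative libraries. The groups did not overlap in this ratio, and in all 6 libraries there was more heavy-chain than summed light-chain RNA per length. These ratios are descriptions without a test.

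**Figure D2:**
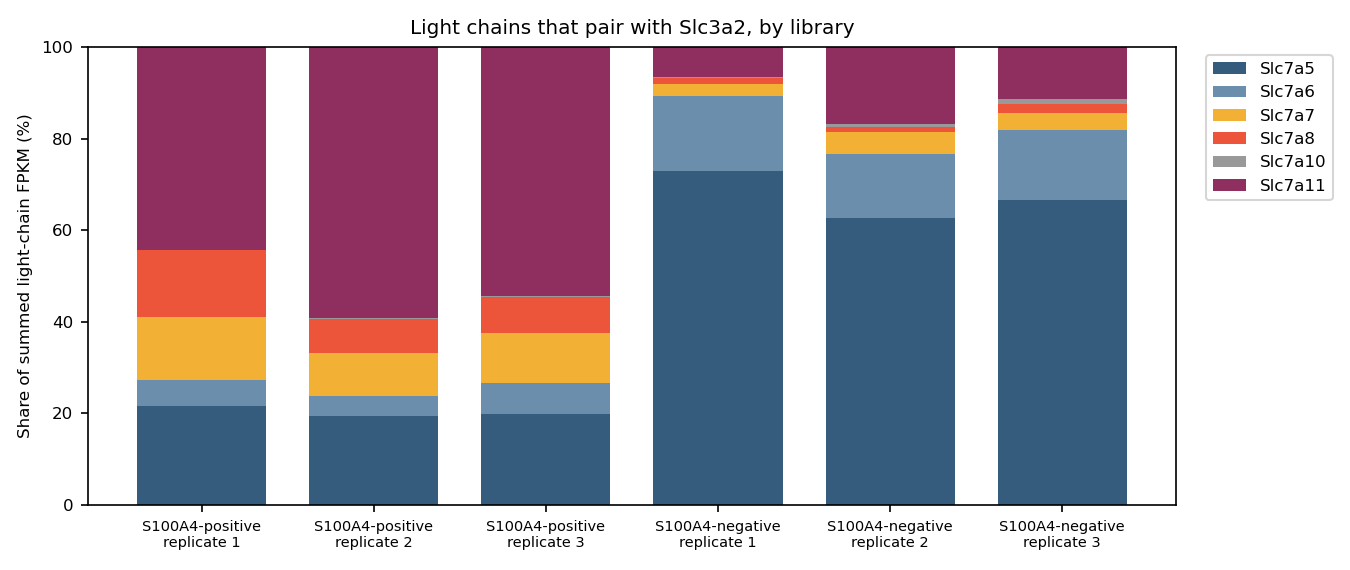
Share of each light chain in the summed light-chain FPKM, in percent, for each library, with S100A4-positive libraries on the left. Slc7a11 takes 44.3% to 59.3% of each S100A4-positive bar, and Slc7a5 takes 62.6% to 72.9% of each S100A4-negative bar.

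Carriers of glutamine outside the heavy-chain system were divided. Slc1a5 (chromosome 7, 16781340 to 16798274), the ASCT2 exchanger of glutamine and other neutral amino acids, stood at 99.1, 87.7 and 104 FPKM in S100A4-positive libraries, against 215, 220 and 225 FPKM in S100A4-negative libraries. Slc1a5 fell by 1.18 (SE 0.11; limma adjusted p = 1.77e-04), the largest fall of the 10. Its libraries agreed closely within each group, the highest being 1.18 times the lowest in the S100A4-positive and 1.05 times in the S100A4-negative group.

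Slc38a1 (chromosome 15, 96571418 to 96642913), the sodium-coupled glutamine carrier SNAT1, stood at 131, 192 and 151 FPKM in S100A4-positive libraries, against 109, 110.5 and 111 FPKM in S100A4-negative libraries. It rose by 0.50 (SE 0.15; limma adjusted p = 0.0240), with every S100A4-positive library above the others. The call is a narrow one. It was lost in 5 of the 6 fits that left out 1 library, with adjusted p of 0.0518 and 0.0531 without S100A4-positive replicates 2 and 3, and 0.0584, 0.0620 and 0.0624 without S100A4-negative replicates 1, 2 and 3.

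Slc38a2 (chromosome 15, 96687392 to 96699730), the related SNAT2 carrier that many cells raise when amino acids run short, stood at 85.0, 95.1 and 88.3 FPKM in S100A4-positive libraries, against 109, 98.1 and 112 FPKM in S100A4-negative libraries. The groups did not overlap but lay close, and the difference was not called (log2 fold change -0.24, SE 0.11; limma adjusted p = 0.0872). Its sign depended on scaling, with 0.13 after median-of-ratios rescaling (limma adjusted p = 0.365). Within libraries Slc38a1 was 1.55, 2.02 and 1.71 times Slc38a2 in the S100A4-positive group, against 1.00, 1.13 and 0.997 times in the S100A4-negative group. These ratios per length did not overlap between the groups.

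Slc43a2 (chromosome 11, 75531694 to 75577575), the LAT4 carrier of branched-chain amino acids, phenylalanine and methionine, needs no heavy chain. It stood at 162, 58.6 and 87.5 FPKM in S100A4-positive libraries, against 30.04, 33.5 and 32.2 FPKM in S100A4-negative libraries. S100A4-positive replicate 1 was 2.77 times replicate 2, the widest spread within a group among the 10, whereas the S100A4-negative libraries were nearly level. Slc43a2 rose by 1.53 (SE 0.33; limma adjusted p = 0.00546), and by 1.14 without S100A4-positive replicate 1. With Gm45606, on the opposite strand, it shares 9.18% of its exon bases, and Gm45606 stood at 1.25 to 3.04 FPKM in S100A4-positive and 1.00 to 1.21 FPKM in S100A4-negative libraries.

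Slc15a3 (ENSMUSG00000024737, chromosome 19, 10839727 to 10859362, + strand), the PHT2 carrier that moves histidine and small peptides out of endolysosomes, had the largest rise of the 10. It stood at 279, 373 and 315 FPKM in S100A4-positive libraries, against 14.5, 36.9 and 24.1 FPKM in S100A4-negative libraries. The lowest S100A4-positive library was 7.55 times the highest S100A4-negative one. Slc15a3 rose by 3.71 (SE 0.31; limma adjusted p = 1.01e-04), the 125th highest fold change among the 13241 genes.

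Of the exon bases of Slc15a3, 28.1% are shared with Tmem132a on the opposite strand. Whether the counting used strand is not given in the sources used here, so reads of the 2 genes cannot be fully told apart. Tmem132a stood at 22.4, 33.3 and 24.2 FPKM in S100A4-positive libraries, against 0.861, 2.49 and 1.24 FPKM in S100A4-negative libraries. Its level per length was below that of Slc15a3 in every library.

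In the S100A4-negative group the order of libraries was the same for several transporters that rose. Replicate 1 was lowest and replicate 2 highest for Slc7a7, Slc7a11 and Slc15a3. The summed monocyte and macrophage markers had the same order, at 785, 1092 and 903 FPKM in S100A4-negative replicates 1, 2 and 3. The summed B cell markers, which were lower in S100A4-positive libraries, also had that order, at 7209, 12657 and 10433 FPKM. Slc43a2 had that order too but was nearly level, at 30.04, 33.5 and 32.2 FPKM. Slc7a8 was highest in replicate 3, and so was Slc38a1, by little, at 109, 110.5 and 111 FPKM. The share of all tested genes with that order was not counted. The part of these markers was not tested.

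By the distance between 6-library profiles of log2(FPKM + 1), each centred on its mean, the genes nearest to Slc15a3 were Cd14, Tnfaip2 and Tmem132a, at distances of 0.44, 0.46 and 0.46 log2 units. Genes with a Gm or Rik name, or with a symbol held by several tested genes, were left out. Tmem132a shares exon bases with Slc15a3, so their reads cannot be fully told apart. Cd14, the lipopolysaccharide co-receptor of monocytes and macrophages, had a log2 fold change of 3.83, and Tnfaip2 one of 3.94. The genes nearest to Slc1a5 were Elp3, Nkrf and Top1mt, at distances of 0.052, 0.086 and 0.099 log2 units. Their log2 fold changes were -1.20, -1.14 and -1.16.

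**Figure D3:**
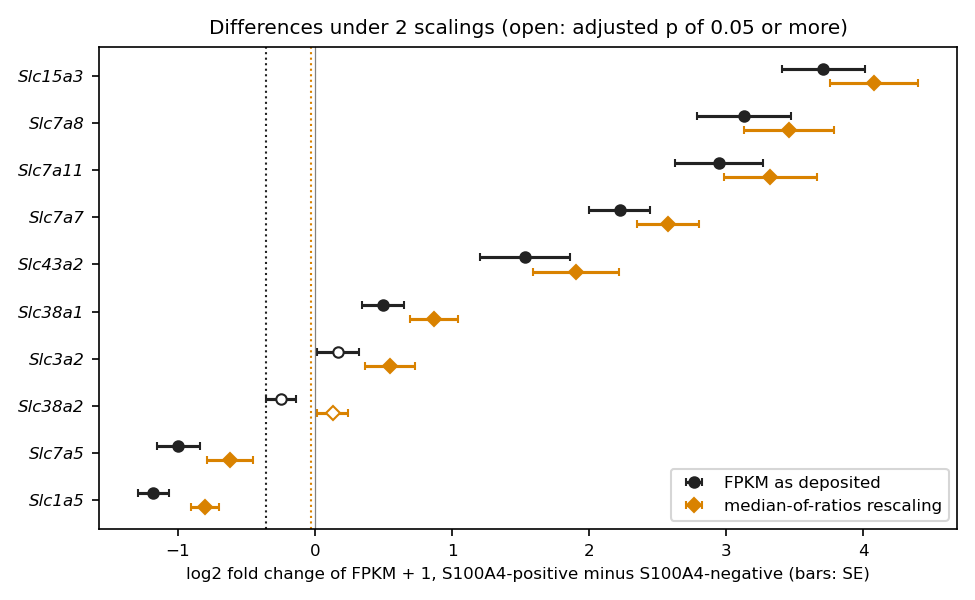
Log2 fold change of each transporter with its standard error, S100A4-positive minus S100A4-negative, for FPKM as deposited (black) and after median-of-ratios rescaling (orange); open symbols had an adjusted p of 0.05 or more and dotted lines give the median of all tested genes, -0.36 and -0.027. Slc15a3, Slc7a8, Slc7a11 and Slc7a7 exceed 2 under both scalings, Slc7a5 and Slc1a5 stay below 0, and Slc38a2 changes sign.

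Scaling matters for the small differences. Under median-of-ratios rescaling the log2 fold change was -0.62 for Slc7a5 and 0.87 for Slc38a1. The rescaling moved the median over all tested genes to -0.027, against -0.36 for the deposited FPKM, a shift of 0.33. It called 7 of the 10 transporters higher, 2 lower and 1 neither way, where 52.1% of all tested genes were called, 27.3% higher and 24.8% lower. The share of calls that were higher was 30.4% for deposited FPKM, 52.4% under median-of-ratios and 42.0% under quantile normalization. Relative to the median of all genes, Slc15a3 rose by 4.07, Slc7a8 by 3.49, Slc7a11 by 3.31, Slc7a7 by 2.58 and Slc43a2 by 1.89, and Slc1a5 fell by 0.82 and Slc7a5 by 0.64.

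Related genes were read from lists that set the transporters in their pathways. Of 23 other plasma membrane amino acid transporters 9 were tested, 3 rose, 3 fell and 3 were not called, with a median of -0.53, where 62.3% of all tested genes were called, 19.0% higher and 43.4% lower. Slc16a10, the TAT1 carrier of aromatic amino acids, stood at 50.1, 62.6 and 41.4 FPKM in S100A4-positive libraries, against 3.69, 4.23 and 4.99 FPKM in S100A4-negative libraries, and rose by 3.29 (SE 0.18; limma adjusted p = 2.31e-05). Slc6a6, the taurine carrier, stood at 789, 467 and 556 FPKM in S100A4-positive libraries, against 177, 173 and 168 FPKM in S100A4-negative libraries, and rose by 1.77. Slc7a2, a carrier of arginine and lysine, rose by 1.65 at a low level of 1.28 to 4.46 FPKM in S100A4-positive libraries and 0.057 to 0.228 FPKM in S100A4-negative libraries. The falls were those of Slc43a1, a relative of Slc43a2, by 1.36, of Slc7a6, and of Slc6a19, a neutral amino acid carrier, by 2.29. The Slc6a19 call was lost with voom and the authors' size factors (limma adjusted p = 0.0576), and its S100A4-negative libraries ran from 1.49 to 14.3 FPKM. At these low levels the size depends on the pseudocount: with a pseudocount of 0.1 the log2 fold changes were -3.59 for Slc6a19, -2.08 for Slc43a1 and 3.58 for Slc7a2.

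Slc15a3 shares the lysosomal membrane with other carriers. Of 10 others, 9 were tested, 6 rose, 0 fell and 3 were not called, with a median of 0.77, against 19.0% of all tested genes called higher. Mfsd12, needed for cysteine import into lysosomes, stood at 44.7, 19.1 and 26.9 FPKM in S100A4-positive libraries, against 2.96, 3.22 and 3.95 FPKM in S100A4-negative libraries, and rose by 2.76 (SE 0.29; limma adjusted p = 2.55e-04). Slc38a7, a lysosomal glutamine carrier, rose by 1.57 and Slc15a4, the close relative of Slc15a3, by 1.41. Slc15a3 was 2.99, 5.43 and 3.64 times Slc15a4 in S100A4-positive libraries, against 0.609, 1.24 and 0.609 times in S100A4-negative libraries.

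Of 11 genes of peptide transport and of sensing by NOD proteins or Toll-like receptors, 10 were matched in the table and 9 tested; 8 rose and 1 fell, with a median of 1.65, where 19.0% of all tested genes were higher and 43.4% lower. Nod2, the sensor of bacterial muramyl dipeptide, rose by 3.21 (SE 0.31; limma adjusted p = 1.82e-04), to 17.2, 37.6 and 28.4 FPKM in S100A4-positive libraries, against 1.22, 2.73 and 2.13 FPKM in S100A4-negative libraries. Tlr7, a receptor for single-stranded RNA, rose by 3.08 and Irf5, a transcription factor of that pathway, by 2.64. The fall was that of Slc15a2, a peptide carrier of the plasma membrane, by 0.72; that call was lost after median-of-ratios rescaling (limma adjusted p = 0.102) and with voom and size factors (0.117).

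Cystine taken up by Slc7a11 feeds glutathione. Of 17 genes of cystine and glutathione use 15 were tested, 10 rose, 1 fell and 4 were not called, with a median of 0.93, beside 19.0% higher and 43.4% lower over all tested genes. Txnrd1, thioredoxin reductase, stood at 280.4, 359 and 328 FPKM in S100A4-positive libraries, against 43.8, 63.0 and 56.8 FPKM in S100A4-negative libraries, and rose by 2.55 (SE 0.17; limma adjusted p = 4.47e-05). Gpx1, a glutathione peroxidase, rose by 2.51. Nfe2l2, which encodes the antioxidant factor NRF2, stood at 255 to 282 FPKM in S100A4-positive and 42.1 to 51.3 FPKM in S100A4-negative libraries and rose by 2.45 (SE 0.12). Ggt1, which breaks down glutathione outside the cell, fell by 2.18.

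Genes of the ATF4 amino acid response were mixed. Of 20, 19 were tested, 6 rose, 3 fell and 10 were not called, with a median of 0.035, against 19.0% higher and 43.4% lower over all tested genes. The largest rises were those of Nupr1, a stress-induced chromatin protein, by 5.13, Cebpb, a transcription factor also used by myeloid cells, by 2.91, and Atf3 by 2.33. The falls were those of Phgdh and Psat1, enzymes of serine synthesis, by 1.74 and 1.03, and of the mitochondrial serine enzyme Shmt2 by 1.43. Chosen after its values were seen, Atf4 stood at 360 to 441 FPKM in S100A4-positive and 279 to 327 FPKM in S100A4-negative libraries and rose by 0.40 (limma adjusted p = 0.0328).

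Imported amino acids meet a set of metabolic enzymes. Of 30, 27 were tested, 2 rose, 11 fell and 14 were not called, with a median of -0.34. Of all tested genes 19.0% were higher and 43.4% lower. Bcat1, which transaminates branched-chain amino acids, fell by 2.22 and Pycr1, of proline synthesis, by 1.88. The rises were those of Arg2, the mitochondrial arginase, by 2.42, and of Glud1, glutamate dehydrogenase, by 0.87. The share of falls was thus close to that of all genes, while the share of rises was below that of all genes.

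Of 27 genes of mTORC1 and its amino acid sensors, all tested, 5 rose, 10 fell and 12 were not called, with a median of -0.33. These shares were close to the 19.0% higher and 43.4% lower of all tested genes. The largest falls were those of Sesn3 and Sesn1, stress-induced inhibitors of mTORC1 signalling, by 2.24 and 1.16, and of Nprl3, a subunit of the inhibitory GATOR1 complex, by 1.12. The largest rises were those of Rragc, a Rag GTPase, by 0.85, Castor2, a relative of the arginine sensor Castor1, by 0.85 and Fnip1, a folliculin partner, by 0.77. The rises numbered 9 after median-of-ratios rescaling and 10 with voom and the authors' size factors. Of all 13241 tested genes 27.3% were called higher after that rescaling, and 3715 genes with voom and size factors. Of 10 mitochondrial amino acid carriers 9 were tested, 2 rose, 3 fell and 4 were not called, with a median of -0.10. This stood beside 19.0% higher and 43.4% lower over all tested genes. None of the carriers was called lower after median-of-ratios rescaling, where 24.8% of all tested genes were.

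Among 10 transcription factors tied to these transporters, 6 rose, 3 fell and 1 was not called, with a median of 0.75, where 19.0% of all tested genes were higher and 43.4% lower. Spi1, which encodes the myeloid factor PU.1, stood at 669, 732 and 646 FPKM in S100A4-positive libraries, against 49.5, 70.9 and 75.5 FPKM in S100A4-negative libraries, and rose by 3.39. Mitf, a relative of the lysosomal regulator TFEB, rose by 3.28. Myc, which drives transporter genes in activated T cells, stood at 31.5, 26.9 and 30.2 FPKM in S100A4-positive libraries, against 72.9, 75.4 and 101 FPKM in S100A4-negative libraries, and fell by 1.45 (SE 0.15; limma adjusted p = 2.69e-04). Bach2, a repressor that keeps T cells quiescent, fell by 1.73. The marker sums of monocytes and macrophages, higher in S100A4-positive libraries, and of T cells, B cells, plasma cells and neutrophils, lower there, differed between the same groups as these lists, and their part was not tested.

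**Figure D4:**
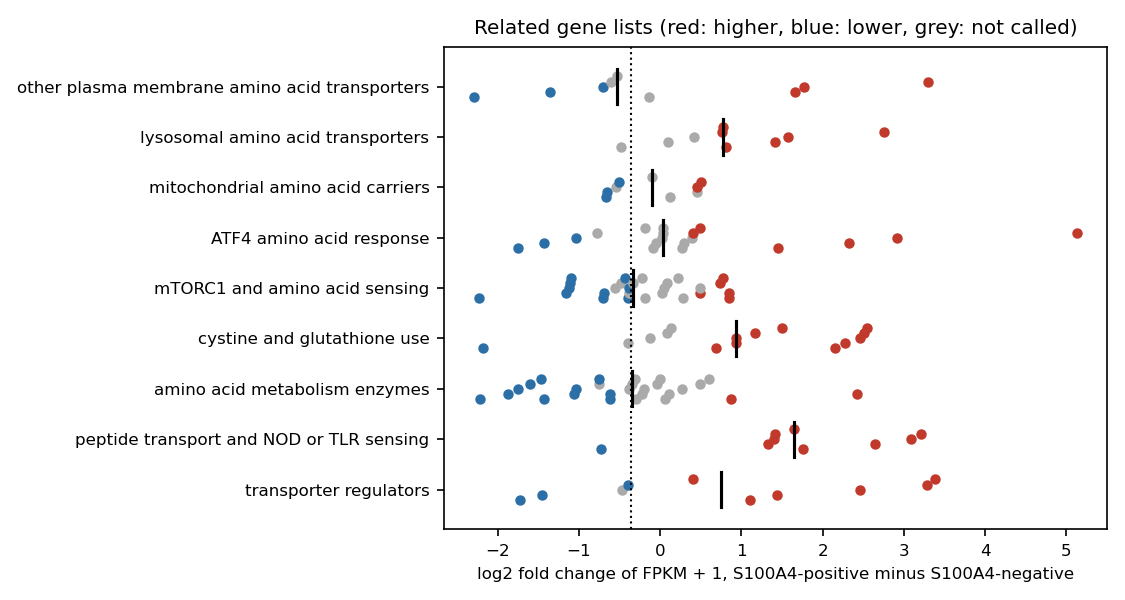
Log2 fold change of each tested gene in 9 related lists, S100A4-positive minus S100A4-negative; red genes were called higher, blue genes lower and grey genes were not called, black bars are list medians and the dotted line is the median of all tested genes, -0.36. The peptide-sensing list, at 1.65, and the cystine list, at 0.93, lie to the right of that line, and the mTORC1 and enzyme lists, at -0.33 and -0.34, lie near it.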

How the data were processed

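RNA of 6 libraries, 3 S100A4-positive and 3 S100A4-negative, was read from 2 tables. Per the submitters' processing notes HISAT2 2.1.0, Cufflinks and Cuffnorm were used with mm10, without saying which made which value; the annotation, strand setting and counter are not given in the sources used here. The authors deposited FPKM for each library, and a comparison table with, per the file headers, normalized read counts averaged by group (a signal), log2 fold changes, raw and adjusted p-values, and calls. Columns were matched to samples by title.

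Whole reads were recovered from the FPKM and the deposited group means: all 112120 values above 0 and under 1000 reads came within 0.05 of a whole number. FPKM are not counts, so log2(FPKM + 1) was tested with limma 3.58.1 (R 4.3.3; trended prior variance), leaving out genes whose mean FPKM was under 1. Voom on the recovered reads was an alternative, beside other pseudocounts, filters, scalings, weights, a replicate block and leaving out each library. The steps were tested on simulated data. Coordinates are GENCODE M21 (GRCm38, the build named mm10); promoters are RefSeq's GRCm38.p6. Python 3.11.15 and pandas 2.3.3 were used otherwise.

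The transporters and the lists were chosen with earlier results of these data known, so counts over them are descriptions and no set test was run. Genes named from a list are up to 3 per direction with the largest called change. Slc66a1 was matched under its older symbol Pqlc2, and Tasl was not matched. The samples with the same replicate number were not treated as pairs.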

Additional observations from a re-analysis of the deposited data

How the results depend on the processing

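Of the 10 transporters, 8 kept direction and call under every alternative that changed the pseudocount, filter, scaling, variance prior, weights or unit; the exceptions were Slc3a2 and Slc38a2. Slc3a2 was called higher after median-of-ratios rescaling (log2 fold change 0.55, limma adjusted p = 0.0412) and with voom and the authors' size factors (0.56, adjusted p = 0.0252), while Slc38a2 turned positive and uncalled in the same fits (0.13 and 0.14); both fits rescale the libraries relative to each other. Genes called lower numbered 3286 and 3156 in these fits, against 5741 with FPKM as deposited. Genes called higher numbered 3618 and 3715, against 2512. Leaving out 1 library gave Slc38a1 0.35 to 0.62, with its call kept only without S100A4-positive replicate 1, and kept every other transporter's call. The light-chain shares and the ratio of Slc38a1 to Slc38a2 kept their direction whichever library was left out. Deviations of same-numbered libraries had Pearson correlations of 0.38, 0.083 and 0.37 across genes, and not every library correlated best with its own number; with the replicate block 8857 genes were called, against 8253, and the calls of the 10 were as before. List counts moved by over 1.5 times in few places. Plasma membrane carriers called lower were 3, 5 without a filter and 1 with a filter of 5. With that filter Slc43a1 and Slc6a19 were no longer tested, so their calls were not lost by a test. Over all genes 5968 of 28627 were called lower without a filter and 4263 of 9498 with the filter of 5. Mitochondrial carriers called higher were 2, and 0 to 4 elsewhere; called lower they were 3, and 0 or 1 after rescaling. mTORC1 genes called higher were 5, and 9 or 10; called lower 10, and 6 with voom and size factors. Enzymes called higher were 2, and 4. Lysosomal carriers called lower were 0, and 1 with the block or voom and library totals. Peptide-sensing genes called lower were 1, and 0. At this number of libraries small differences can be missed, and genes near 1 FPKM rest on few reads.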

Other observations

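A pattern among the S100A4-positive libraries was noticed after the values were seen and was not tested. All 9 tested lysosomal amino acid transporters were highest in S100A4-positive replicate 1 of the 3 S100A4-positive libraries, where 43.2% of all tested genes were. The 10 transporters did not share this pattern. Only 3 of them, Slc7a7, Slc7a8 and Slc43a2, were highest there, a smaller share than the 43.2% of all tested genes. Another 5, Slc3a2, Slc38a1, Slc38a2, Slc15a3 and, by little, Slc7a11, were lowest there. Of all 13241 tested genes 4251 were lowest there. Mfsd12 stood at 44.7 FPKM in that library, against 19.1 and 26.9 FPKM in S100A4-positive replicates 2 and 3, and Ctns, the lysosomal cystine exporter, at 40.9 against 20.5 and 24.3 FPKM. In the same library all 13 neutrophil markers were highest, with a sum of 1909 FPKM against 584 and 455 FPKM. The plasma cell sum was also highest there, at 653 FPKM against 363 and 360 FPKM. So was the monocyte and macrophage sum, at 11026 FPKM against 10453 and 10017 FPKM, with 13 of its 20 markers highest. The sum of the dendritic cell markers was lowest there, at 512 FPKM against 846 and 1006 FPKM. So was the T cell sum, at 420 FPKM against 449 and 592 FPKM. The B cell sums were nearly level, at 1605 to 1622 FPKM.

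Slc3a2 RNA exceeded summed light-chain RNA in all 6 libraries. Within the S100A4-positive libraries the ratio of light chains to Slc3a2 was highest in replicate 1, at 0.801, and lowest in replicate 3, at 0.581.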
